A study of Mus musculus with 8 samples.

Results

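Of the ligands and receptors of the epidermal growth factor (EGF) family, 8 genes were examined in MC38-OVA tumors: the ligand genes Areg, Ereg, Hbegf, Tgfa and Btc and the receptor genes Egfr, Erbb2 and Erbb3. They were chosen by gene name, and all 8 were found among the 25766 entries of the count table, of which 22036 are annotated genes. RNA-seq had been run on total RNA of 8 subcutaneous tumors, 4 labelled shNT and 4 labelled shXBP1. MC38-OVA cells derive from a colon adenocarcinoma of the mouse and express ovalbumin as a model antigen. Both groups were grown from these cells in female C57BL/6J mice, the shNT cells with a control hairpin and the shXBP1 cells with a hairpin against Xbp1, whose product switches on genes of the ER stress response. The labels do not state whether a hairpin line was 1 clone or a pool, which promoter drove the hairpin, how old the mice were or when tumors were taken. They also do not state whether 1 mouse gave 1 tumor, and p-values therefore measure only how these samples vary, which may be technical.

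EGF family ligands are made as membrane-anchored precursors that metalloproteases, chiefly ADAM17 and ADAM10, cut to release the soluble factor. The released ligands bind receptor tyrosine kinases of the ERBB family, which then pair and signal through the RAS-ERK and PI3K-AKT cascades. EGFR binds AREG, TGFA, HBEGF, BTC and EREG, ERBB3 binds neuregulins and has little kinase activity of its own, and ERBB2 has no known ligand and acts as the favoured partner of the others. In the intestine this pathway drives epithelial renewal and repair, and colon cancers often depend on it.

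None of the 8 genes passed the test between shXBP1 and shNT tumors (0 of 8 at an adjusted p below 0.05, edgeR's quasi-likelihood test, Benjamini-Hochberg adjusted across the whole table). Over all 14907 genes tested, 30.0% passed. Ereg and Erbb2 came nearest, with an adjusted p of 0.0523 and 0.0504, and lay in opposite directions: Ereg was 1.46-fold higher and Erbb2 1.34-fold lower in shXBP1 tumors. At an unadjusted p below 0.05, the same 2 genes of the 8 passed. The authors' deposited table, which names DESeq2 in its headers, lists both past 0.05 (adjusted p = 0.0244 for Ereg and 0.0293 for Erbb2), and so did DESeq2 as run here (0.0270 and 0.0280). In limma voom, Erbb2 passed (0.0461) and Ereg did not (0.0509). Per gene length, Hbegf and Btc were by far the most abundant of the 5 ligands, and Erbb2 of the 3 receptors, in every tumor.

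Total counts were 29070605 to 36012997 per tumor. Xbp1, the targeted gene, was lower in shXBP1 tumors (per tumor, 97.3, 96.0, 102.5 and 109.2 CPM with shNT against 77.2, 76.0, 73.7 and 56.6 CPM with shXBP1; log2 fold change -0.51, SE 0.10, edgeR adjusted p = 0.00255). CPM are counts scaled to a common library size, and each log2 fold change is taken as shXBP1 minus shNT. The RNA is that of whole tumors, so fewer cells of a type and less RNA per cell cannot be told apart. Leukocyte marker genes (Ptprc, Cd53, Laptm5, Coro1a) summed to 243 to 331 CPM in shNT and 520 to 842 CPM in shXBP1 tumors, the lowest of the latter being tumor 4, and 4 of 4 were higher by the test. Fibroblast markers summed to 885 to 1209 and 1638 to 2122 CPM, with 4 of 6 higher. Most of the difference between these sums was Dcn, at 266 to 352 CPM in shNT and 805 to 1489 CPM in shXBP1 tumors. The collagen genes of the list overlapped or lay lower in part: Col1a1 at 93.4 to 177 and 96.1 to 212 CPM, Col1a2 at 411 to 542 and 358 to 438 CPM. Markers of simple epithelium and colon were low in both groups: of 10 genes, 7 lay under 1 CPM in every tumor, Cdx2 had 0 counts in all 8, Epcam reached at most 0.664 CPM and Krt8 0.295 CPM. The labelled colon adenocarcinoma origin is therefore not visible in these defining epithelial genes, and Cdh1, at 4.54 to 9.86 CPM, and Lgals4 made up most of the list's sum. Of the skin epithelium list, Krt14 was at 147 to 208 CPM in shNT and 48.0 to 52.8 CPM in shXBP1 tumors, while Krt5, its usual partner, did not pass 3.09 CPM.

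Of the 5 ligand genes, 3 lie in 1 cluster on mouse chromosome 5 (GRCm38). In map order these are Ereg (chr5:91074622-91093646, plus strand), Areg (chr5:91139599-91148432, plus strand) and Btc (chr5:91357261-91402994, minus strand). Epgn, a further family ligand, starts the cluster (chr5:91027464-91035215, plus strand), and the 4 genes span 375.5 kb. The gaps are 39.4 kb from Epgn to Ereg, 46.0 kb from Ereg to Areg and 208.8 kb from Areg to Btc. Of the other ligands, Tgfa lies at chr6:86195223-86275719 (plus strand). Of the receptors, Egfr (chr11:16752203-16918158, plus strand) and Erbb2 (chr11:98412470-98437716, plus strand) share chromosome 11, and Erbb3 is at chr10:128567523-128589652 (minus strand).

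Promoter windows of 300 bases, from 250 before to 50 after the start of the transcript, were at hand from RefSeq (GRCm38.p6) for 5 of the 8 genes: Areg, Btc, Tgfa, Egfr and Erbb2. They were searched on both strands for ACGTGG, the core of the element that XBP1 is known to bind, for CCACG, the end of the ER stress element, which every ACGTGG also holds on its reverse strand, for TGANTCA, the AP-1 site that ERK signalling acts on, and for TGACGTCA, the cyclic AMP response element, which was added after the sequences had been seen. Among 32851 promoters of the same length, 8.31% held ACGTGG, 32.8% CCACG, 7.81% TGANTCA and 1.79% TGACGTCA. The 3 windows below are shown because Areg and Btc are neighbours in the cluster with very different levels, and because Erbb2 was the most abundant receptor. Each runs 5′ to 3′ on the gene's own strand, with any match in capitals.
Areg, chr5:91139349-91139648, plus strand: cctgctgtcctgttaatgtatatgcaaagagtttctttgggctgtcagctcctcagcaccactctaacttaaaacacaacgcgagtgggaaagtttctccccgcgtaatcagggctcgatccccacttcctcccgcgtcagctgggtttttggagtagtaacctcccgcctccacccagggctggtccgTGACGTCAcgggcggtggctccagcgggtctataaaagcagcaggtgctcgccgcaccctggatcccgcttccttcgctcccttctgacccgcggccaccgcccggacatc
Btc, chr5:91402945-91403244, minus strand: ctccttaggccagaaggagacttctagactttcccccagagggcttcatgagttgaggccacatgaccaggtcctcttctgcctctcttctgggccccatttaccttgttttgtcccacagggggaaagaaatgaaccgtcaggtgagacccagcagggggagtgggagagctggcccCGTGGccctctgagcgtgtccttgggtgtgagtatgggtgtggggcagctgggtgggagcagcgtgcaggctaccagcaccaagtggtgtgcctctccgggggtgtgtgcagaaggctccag
Erbb2, chr11:98412234-98412533, plus strand: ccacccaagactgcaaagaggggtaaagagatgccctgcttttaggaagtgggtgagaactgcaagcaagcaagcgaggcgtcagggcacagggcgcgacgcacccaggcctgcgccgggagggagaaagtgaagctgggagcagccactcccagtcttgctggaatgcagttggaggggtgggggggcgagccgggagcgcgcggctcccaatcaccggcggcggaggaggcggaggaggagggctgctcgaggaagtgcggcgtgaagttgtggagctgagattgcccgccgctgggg
The Areg window holds TGACGTCA, beginning at position -61 from the start. The Btc window holds CGTGG, the reverse complement of CCACG, beginning at position -72. None of the motifs was found in the windows of Erbb2, Egfr and Tgfa, and ACGTGG was in none of the 5. A match is a run of letters and not a measured binding site.

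Hbegf encodes heparin-binding EGF-like growth factor, which binds EGFR and ERBB4. The shNT tumors, in order from 1 to 4, had 36.3, 33.1, 34.4 and 33.2 CPM, and the shXBP1 tumors 33.4, 28.1, 30.2 and 32.9 CPM. The groups overlapped, and tumors of both groups lay within a narrow range. The means were 34.3 ± 1.51 and 31.1 ± 2.48 CPM (SD, n = 4 each), a log2 fold change of -0.14 (SE 0.09, 95% interval -0.32 to 0.05, edgeR adjusted p = 0.256). Of the 8 genes Hbegf had the narrowest interval.

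Btc encodes betacellulin, a ligand of EGFR and ERBB4. It was measured at 54.7, 31.9, 40.0 and 36.3 CPM in shNT tumors and at 31.1, 36.2, 39.8 and 33.3 CPM in shXBP1 tumors. The 7 tumors other than shNT tumor 1 lay together whatever their group. The means were 40.7 ± 9.90 and 35.1 ± 3.77 CPM (SD, n = 4 each; log2 fold change -0.21, SE 0.15, 95% interval -0.54 to 0.11, edgeR adjusted p = 0.313). Without shNT tumor 1 the log2 fold change was -0.03 (adjusted p = 0.857).

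Ereg encodes epiregulin, a low-affinity, long-acting ligand of EGFR and ERBB4. It had 6.02, 7.22, 4.71 and 4.27 CPM in shNT tumors and 9.31, 7.01, 9.44 and 6.83 CPM in shXBP1 tumors. The groups overlapped through shNT tumor 2, which lay above shXBP1 tumors 2 and 4. Means were 5.56 ± 1.34 and 8.15 ± 1.42 CPM (SD, n = 4 each), a log2 fold change of 0.55 (SE 0.20, 95% interval 0.12 to 0.98, edgeR adjusted p = 0.0523). The call turned on single tumors: without shNT tumor 2 the log2 fold change was 0.70 (adjusted p = 0.0261) and without shXBP1 tumor 4 it was 0.63 (adjusted p = 0.0250), while in the 6 other fits that left out 1 tumor it was 0.44 to 0.62, with an adjusted p up to 0.145. Exons of Ereg share 141 bases with Gm19610 on the opposite strand, and since no source used here gives the strand setting of the counting, reads of the pair cannot be told apart there.

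Areg, which encodes amphiregulin, a heparin-binding EGFR ligand of epithelium, mast cells and type 2 lymphoid cells, was near the limit of detection. Its counts were 14, 25, 13 and 13 in shNT tumors and 22, 16, 2 and 24 in shXBP1 tumors. In CPM these were 0.441, 0.789, 0.451 and 0.405 against 0.701, 0.514, 0.058 and 0.643. The lowest and the second highest of the 8 values were both in shXBP1 tumors. The log2 fold change was -0.13 with a 95% interval from -1.35 to 1.10 (SE 0.57, edgeR adjusted p = 0.889), so a difference of 2-fold in either direction was not detectable at this depth. It was 0.14 without shNT tumor 2 and 0.25 without shXBP1 tumor 3. Marker genes of mast cells and basophils summed to 4.44 to 10.1 CPM in shNT and 44.1 to 104 CPM in shXBP1 tumors, with 7 of 7 tested higher. Those listed for type 2 innate lymphoid cells, mostly Il1rl1, summed to 205 to 311 and 574 to 791 CPM, with 3 of 4 tested higher. Il7r (8.23 to 10.7 and 21.2 to 37.6 CPM) and Rora (1.23 to 3.67 and 4.33 to 8.84 CPM) also lay higher in every shXBP1 tumor. Gata3 overlapped (3.34 to 7.80 and 3.72 to 5.88 CPM), and Il5 and Il13 stayed under 1 CPM in every tumor. In shNT tumors Il1rl1 was at 192 to 290 CPM and the pan-leukocyte gene Ptprc at 42.6 to 66.5 CPM, not scaled for gene length. Which cells held the Il1rl1 RNA was not tested, so it is not read here as the level of that cell type. Areg was thus measured at similar low levels in both groups while the mast cell and basophil markers were higher in shXBP1 tumors.

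Tgfa, which encodes transforming growth factor alpha, an EGFR ligand, had the fewest counts of the 8 genes. There were 8, 14, 0 and 24 counts in shNT tumors and 8, 7, 21 and 19 in shXBP1 tumors, or 0.252, 0.442, 0 and 0.748 CPM against 0.255, 0.225, 0.606 and 0.509 CPM. Both the lowest and the highest value were in shNT tumors. The log2 fold change was 0.14 (SE 0.71, 95% interval -1.41 to 1.70, edgeR adjusted p = 0.901), and it was -0.25 without shNT tumor 3 and -0.12 without shXBP1 tumor 3. A difference of 2-fold in either direction was not detectable here either. Tgfa shares 118 exonic bases with Gm43917 on the opposite strand.

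**Figure D1:**
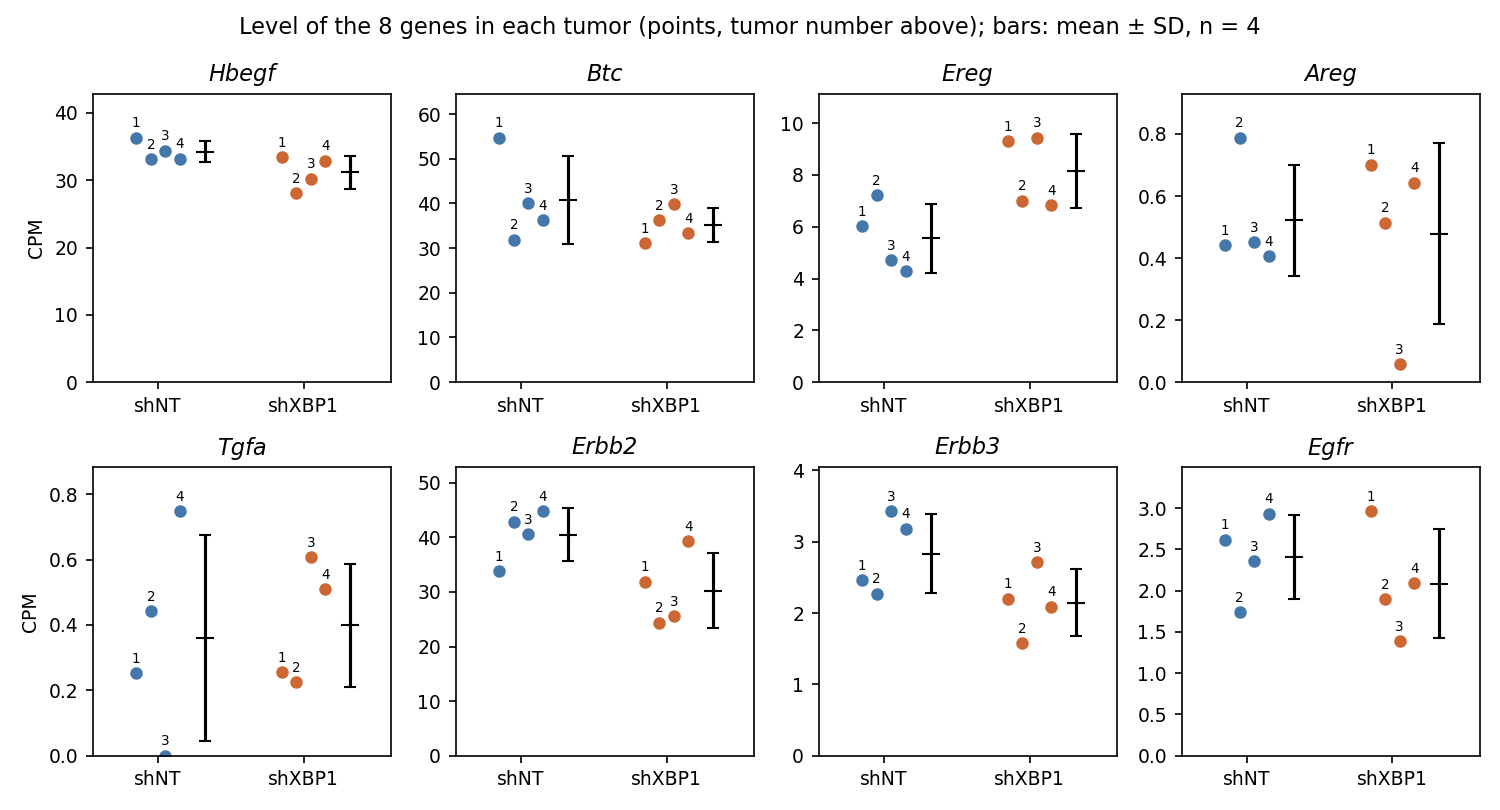
Level of each of the 8 genes in every tumor, in CPM on a separate linear axis per gene; points are tumors, with the tumor number above each point, and bars show the mean ± SD of 4 tumors. In all 8 panels the shNT and shXBP1 points overlap, and shXBP1 tumor 4 has the highest Erbb2 of its group at 39.3 CPM.

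Egfr encodes the receptor that all 5 of these ligands bind. It was low throughout, at 2.62, 1.73, 2.36 and 2.93 CPM in shNT tumors and 2.96, 1.90, 1.39 and 2.09 CPM in shXBP1 tumors. The highest and the lowest value were both in the shXBP1 group. Means were 2.41 ± 0.507 and 2.08 ± 0.657 CPM (SD, n = 4 each; log2 fold change -0.21, SE 0.28, 95% interval -0.81 to 0.39, edgeR adjusted p = 0.604).

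Erbb2 encodes the receptor that has no known ligand and joins the others in dimers. It was at 33.8, 42.9, 40.5 and 44.8 CPM in shNT tumors and 31.9, 24.3, 25.6 and 39.3 CPM in shXBP1 tumors. Of the shXBP1 tumors 3 lay below all 4 shNT tumors, and tumor 4 lay among them. The means were 40.5 ± 4.79 and 30.3 ± 6.87 CPM (SD, n = 4 each), a log2 fold change of -0.42 (SE 0.15, 95% interval -0.74 to -0.10, edgeR adjusted p = 0.0504). Left without shXBP1 tumor 4, Erbb2 was lower at -0.57 (adjusted p = 0.00254), and without shNT tumor 1 at -0.49 (adjusted p = 0.0372). In the 6 other fits that left out 1 tumor it lay between -0.45 and -0.33, with an adjusted p from 0.0859 to 0.135. Tumor 4, which had the highest Erbb2 of the shXBP1 group, also had its lowest Ptprc, the pan-leukocyte gene, and its lowest Xbp1. Ptprc was at 94.8 CPM there, against 156 to 193 CPM in shXBP1 tumors 1 to 3. The shNT tumors had 42.6 to 66.5 CPM of Ptprc. Xbp1 was at 56.6 CPM in tumor 4, against 73.7 to 77.2 CPM in shXBP1 tumors 1 to 3. When the model also held the log2 CPM of Ptprc, the Erbb2 coefficient was 0.33 in place of -0.42 (SE 0.24, adjusted p = 0.531), and that fit, in which Ptprc and the group move together, widened the standard errors over all genes by a median of 2.26 times. The part of leukocyte content in the Erbb2 result was not otherwise tested, and that of the Xbp1 level was not tested. Erbb2 shares 9 exonic bases with Mien1 on the opposite strand.

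Erbb3 encodes the neuregulin receptor that signals through its partners. It was at 2.46, 2.27, 3.43 and 3.18 CPM in shNT tumors and 2.20, 1.57, 2.71 and 2.09 CPM in shXBP1 tumors. Of the shXBP1 tumors 3 lay below all shNT tumors and tumor 3 lay among them. The log2 fold change was -0.40 (SE 0.24, 95% interval -0.93 to 0.13, edgeR adjusted p = 0.238), close to that of Erbb2 but with a wider interval at its lower counts. Over the 8 genes the median log2 fold change was -0.17, with a range from -0.42 to 0.55, beside a median of -0.0054 over all genes tested. None of the 8 genes had groups that did not overlap, beside 30.2% of all genes tested.

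**Figure D2:**
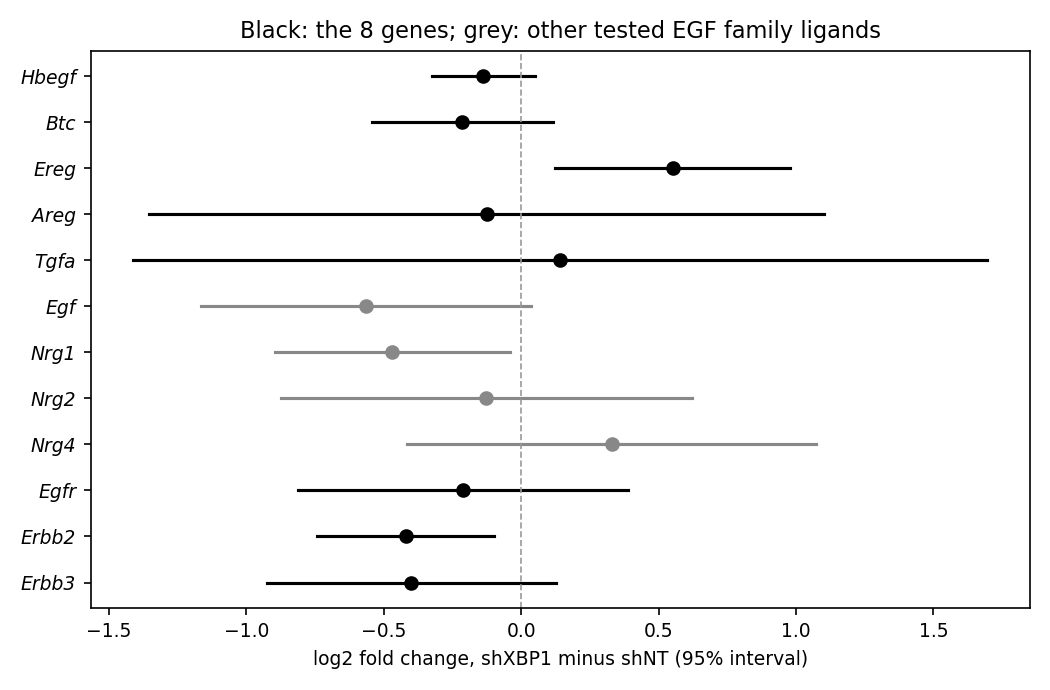
Log2 fold change of shXBP1 against shNT (points) with its 95% interval (bars) for the 8 genes in black and 4 other tested family ligands in grey. Only the intervals of Ereg (0.12 to 0.98), Erbb2 (-0.74 to -0.10) and Nrg1 (-0.90 to -0.04) leave out 0, before adjustment, and those of Areg and Tgfa are the widest.

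Levels of different genes were compared per gene length, as FPKM, the authors' values per gene length and library size, in the deposited table. Hbegf (chr18:36504927-36515805, minus strand, GRCm38) had a median of 12.4 FPKM over the 8 tumors (10.1 to 13.3), Btc 10.9 (9.36 to 16.6), Erbb2 6.47 (4.15 to 7.91) and Ereg 1.51 (0.894 to 1.998). Erbb3 had 0.349 FPKM (0.221 to 0.497), Areg 0.335 (0.032 to 0.598), Egfr 0.195 (0.119 to 0.251) and Tgfa 0.067 (0 to 0.142). The ranges of Hbegf and Btc overlapped, as did those of Erbb3 and Areg, of Areg and Egfr, and of Egfr and Tgfa. Between Btc and Erbb2, Erbb2 and Ereg, and Ereg and Erbb3 the ranges over tumors did not meet.

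Within the ligand set, Hbegf and Btc together held 89.6% to 94.99% of the summed FPKM of the 5 ligands. Hbegf held 42.3% to 50.7%, Btc 39.0% to 52.6%, Ereg 3.67% to 8.09%, Areg 0.124% to 2.35% and Tgfa 0% to 0.584%. The ratio of Btc to Hbegf ran from 0.769 to 1.24, so neither led in all tumors. In the cluster on chromosome 5, the FPKM of Btc lay above that of its neighbour Areg in every tumor. Among receptors the FPKM of Erbb2 was 21.9 to 50.4 times that of Egfr (median 33.3) and 11.3 to 22.9 times that of Erbb3 (median 17.3).

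**Figure D3:**
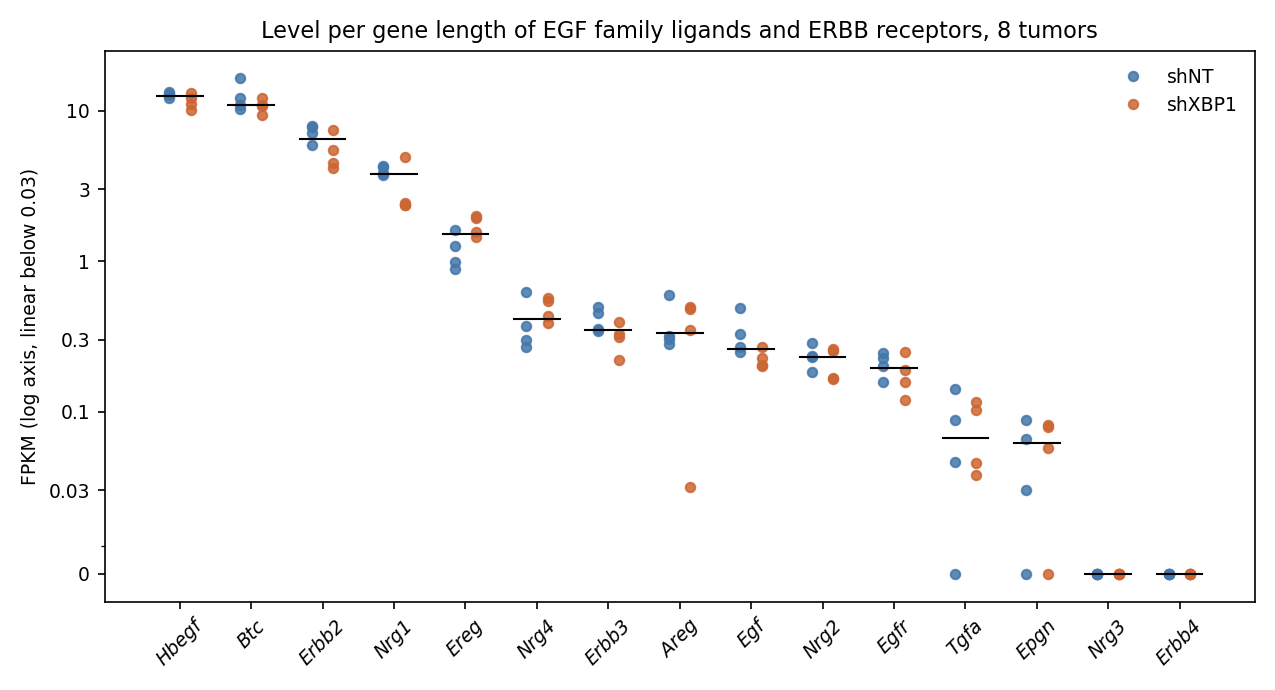
FPKM of the family genes in the 8 tumors on an axis that is logarithmic above and linear below 0.03, 1 point per tumor (blue shNT, orange shXBP1), with genes in order of their median (line). Hbegf, Btc and Erbb2 lie at 4.15 FPKM or more in every tumor, and Egfr and Tgfa reach at most 0.251 FPKM.

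The family has 7 further genes, 6 ligands and the receptor Erbb4. Nrg3, a neuregulin, and Erbb4, the other neuregulin receptor, had 0 counts in all 8 tumors, which allows up to 0.0116 CPM over the 8 tumors (3 counts in all, counting error only). Epgn, the epigen gene at the head of the cluster, had 12 counts in the shNT and 16 in the shXBP1 tumors together and was below the filter. None of the 4 tested genes passed. Nrg1, which encodes neuregulin 1, a ligand of ERBB3 and ERBB4, was the most abundant of them at a median of 3.79 FPKM (2.35 to 4.90), which places it between Erbb2 and Ereg.

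Nrg1 was at 20.4, 21.1, 19.9 and 18.6 CPM in shNT tumors and 11.5, 12.6, 11.4 and 22.2 CPM in shXBP1 tumors. Of the shXBP1 tumors 3 lay well below every shNT tumor, and tumor 4 lay above all of them. The log2 fold change was -0.47 (SE 0.20, 95% interval -0.90 to -0.04, edgeR adjusted p = 0.0919), and without shXBP1 tumor 4 Nrg1 was lower at -0.75 (adjusted p = 0.000153). With Ptprc as a covariate the coefficient was 0.51 (SE 0.28, adjusted p = 0.400). Nrg1 shares 482 exonic bases with Gm26578 on the opposite strand.

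Egf, the founding ligand, was at 1.48, 2.49, 1.35 and 1.84 CPM in shNT tumors and 1.12, 1.29, 1.16 and 1.29 CPM in shXBP1 tumors. Its groups did not overlap, as in 13.6% of all genes in this direction, but it did not pass the test (log2 fold change -0.56, SE 0.28, edgeR adjusted p = 0.146). Egf shares 607 exonic bases with Gm42697 and 500 with 6330410L21Rik, both on the opposite strand. Nrg2 and Nrg4, the other neuregulins measured, had log2 fold changes of -0.13 (SE 0.34, adjusted p = 0.814) and 0.33 (SE 0.34, adjusted p = 0.505) in the same test. Nrg4 shares 368 exonic bases with Fbxo22 on the opposite strand.

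Of 10 tested genes for the release of the ligands or its restraint, 4 rose, 1 fell and 5 did not pass (median log2 fold change 0.21). Timp3, a metalloprotease inhibitor gene, was among those that did not pass. Over all genes tested, 16.9% rose and 13.1% fell. Rhbdf2, which encodes iRhom2, the partner that brings ADAM17 to the cell surface and does so in leukocytes in particular, rose from 35.4 ± 4.12 to 65.2 ± 2.41 CPM (SD, n = 4 each; log2 fold change 0.88, SE 0.09, edgeR adjusted p = 4.20e-05). In single tumors it was 34.1, 31.8, 41.3 and 34.5 CPM against 68.2, 62.4, 65.8 and 64.6 CPM, and no tumor of one group reached the other. Adam17, the main sheddase of Areg, Tgfa, Hbegf and Ereg, rose from 84.0 ± 5.82 to 122 ± 14.0 CPM (SD, n = 4 each; log2 fold change 0.54, edgeR adjusted p = 0.00130). Per tumor it was 87.2, 75.3, 87.4 and 86.1 CPM against 125, 132, 130 and 102 CPM. The lowest shXBP1 value of Adam17 was that of tumor 4, which had the lowest leukocyte marker sum of its group. For Rhbdf2 the lowest shXBP1 value was instead that of tumor 2 (62.4 CPM), with tumor 4 at 64.6 CPM.

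Frmd8, a protein that stabilises iRhoms, rose from 40.9 to 49.6 CPM (adjusted p = 0.0203), and Adam9, named after its values were seen, was the other gene that rose. Frmd8 did not pass without shNT tumor 2 (0.0602) or shXBP1 tumor 1 (0.0598). Adam9 passed in only 2 of the 8 fits that left out 1 tumor, with an edgeR adjusted p up to 0.140. Rhbdf1, the iRhom widely expressed outside blood cells, fell from 85.6 to 66.6 CPM (log2 fold change -0.36, SE 0.12, adjusted p = 0.0340). It failed to pass when any of shNT tumors 2 to 4 or shXBP1 tumors 1 to 3 was left out, with an adjusted p of 0.0525 to 0.105. The count of processing genes that rose was 2 without shNT tumor 2 and 0 with Ptprc as a covariate. In that covariate fit 134 of all 14907 genes rose. With Ptprc as a covariate the log2 change of Rhbdf2 was 0.71 (adjusted p = 0.0893), that of Adam17 -0.0030 and that of Rhbdf1 0.11, beside leukocyte markers of which 4 of 4 rose.

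Of 21 tested adaptor and cascade genes below the receptors, 1 rose, 4 fell and 16 did not pass (median log2 fold change -0.12). That is 23.8% called, near the 30.0% over all genes. Pik3r1, the regulatory subunit of PI3K, rose from 24.4 to 35.2 CPM (log2 fold change 0.53, SE 0.09, edgeR adjusted p = 0.00109). Among those that fell, Sos1, an exchange factor below the adaptors, fell by 0.29 and Pik3cb, a catalytic subunit of PI3K, by 0.27 on the log2 scale, with edgeR adjusted p of 0.0202 and 0.0342. The adaptor Shc1, named after its values were seen, also fell. The calls of genes that fell depended on single tumors, while Pik3r1 passed with each tumor left out in turn. The number that fell was 2 without shNT tumor 1, 0 without shNT tumor 2 or 3, 1 when shNT tumor 4 or any of shXBP1 tumors 1 to 3 was left out, and 5 without shXBP1 tumor 4. Of the genes that rose there were 2 without shNT tumor 4 or without shXBP1 tumor 2, and 3 without shXBP1 tumor 4.

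Of 19 tested genes that restrain ERBB or RAS signalling, 5 rose, 1 fell and 13 did not pass (median log2 fold change 0.19). The 31.6% called is near the 30.0% over all genes. Cblb, a ubiquitin ligase that acts on activated receptors and on T cell signalling, rose from 19.95 to 29.5 CPM (log2 fold change 0.56, adjusted p = 0.00206). Ptprj, a receptor phosphatase also known as CD148 of leukocytes, rose from 43.4 to 65.4 CPM (0.59, adjusted p = 0.00263). Spry2, a feedback inhibitor of RAS-ERK signalling, rose from 18.4 to 27.0 CPM (0.55, adjusted p = 0.00287), and Lrig1, which promotes loss of ERBB receptors, rose from 38.9 to 52.3 CPM (0.43, adjusted p = 0.00743). Errfi1, which encodes the EGFR inhibitor MIG6, was the other that rose, and Socs5 was the one that fell; both were named after their values were seen. Errfi1 failed to pass when any of shNT tumors 2 to 4 or shXBP1 tumor 3 was left out, and Socs5 did not pass without shNT tumor 3. The number that fell was 0 without shNT tumor 3 and 2 without shXBP1 tumor 4.

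Of 14 tested genes known to follow ERK activity, 4 rose, 4 fell and 6 did not pass (median log2 fold change -0.03), beside 16.9% that rose and 13.1% that fell over all genes. Those that fell included a pair of the 3 PEA3-type transcription factor genes and a phosphatase of ERK. Etv4 fell from 79.6 ± 1.58 to 41.2 ± 6.32 CPM (SD, n = 4 each; log2 fold change -0.95, SE 0.10, edgeR adjusted p = 6.55e-05), with 78.0, 80.5, 78.7 and 81.4 CPM in shNT and 45.7, 32.7, 40.1 and 46.4 CPM in shXBP1 tumors. Dusp4, a phosphatase that ERK induces, fell from 27.1 ± 1.20 to 14.8 ± 4.72 CPM (SD, n = 4 each; -0.87, SE 0.18, edgeR adjusted p = 0.00338), with 11.2, 13.5, 12.6 and 21.7 CPM in shXBP1 tumors 1 to 4. In both genes the groups did not overlap. The shXBP1 tumor nearest to the shNT tumors was tumor 4, by a small margin over tumor 1 in Etv4. In other genes tumor 4 lay farthest from the shNT tumors: Spry2 (30.0 CPM), Lrig1 (63.9 CPM), Errfi1 (278 CPM), Egr1 (135 CPM) and Dusp5 (40.2 CPM).

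Etv5 fell from 66.3 to 45.5 CPM (log2 fold change -0.54, adjusted p = 0.00206). Ccnd1, the cyclin D1 gene, was the fourth that fell (-0.34, adjusted p = 0.00891). Egr1, an immediate early gene, rose from 63.8 to 104 CPM (0.70, adjusted p = 0.00402), as did Spry2, which belongs to both lists, Dusp5 and Etv1, the third PEA3-type gene. Ccnd1, Egr1, Dusp5 and Etv1 were named after their values were seen. Without shNT tumor 2 the number that rose was 2, with Etv1 at an adjusted p of 0.0582. Dusp5 passed in only 1 of the 8 fits that left out 1 tumor, with an edgeR adjusted p up to 0.122. With Ptprc as a covariate none of the 4 genes that fell passed, and the coefficient was -0.55 for Etv4, -0.69 for Etv5, -0.10 for Dusp4 and -0.07 for Ccnd1. Over all these lists 13 genes rose and 10 fell of 62 tested, beside 30.0% called over all genes. With that covariate 4 of the list genes rose and 0 fell, beside 134 that rose and 106 that fell of all 14907 genes. Without the covariate 2517 of all genes rose and 1958 fell, so calls were lost over all genes as well as in these lists. Of the genes that rose, the lists kept a larger part than all genes did, a difference that was not tested.

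**Figure D4:**
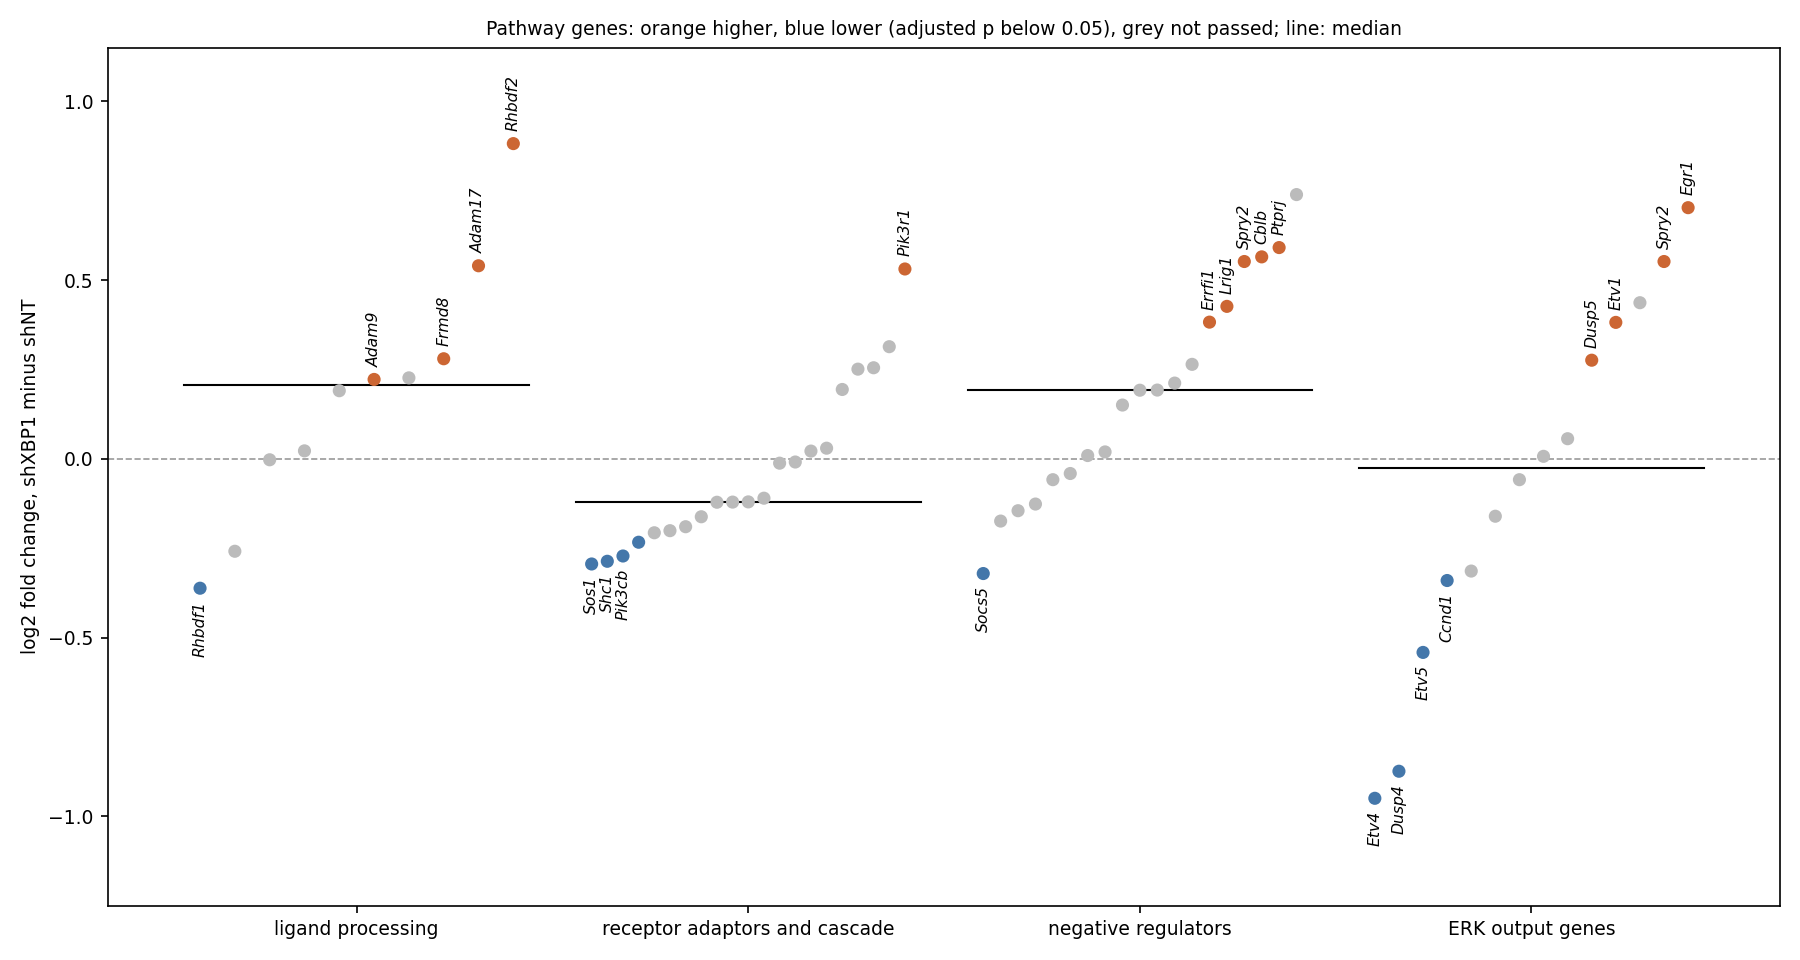
Log2 fold change of every tested gene of the 4 lists, sorted within each list; orange points rose and blue points fell at an adjusted p below 0.05, grey points did not pass, and the black line is the median of a list. Rhbdf2 at 0.88 and Etv4 at -0.95 are the extremes of the called genes, and Pik3r1 at 0.53 is the one cascade gene that rose; not every called gene is labelled.

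Around Erbb2 and Ereg the choice of method decided the call. Erbb2 passed in 6 of 13 alternative fits of all 8 tumors and Ereg in 4 of 12. In those fits the adjusted p was 0.00922 to 0.531 for Erbb2 and 0.0270 to 0.526 for Ereg. The direction of Ereg held in all of them (log2 fold change 0.33 to 0.69, the lowest on log2(FPKM + 1), which understates low genes), and that of Erbb2 in all but the fit with Ptprc. The other 6 genes passed in none. In the authors' deposited table the log2 fold changes were 0.52 for Ereg, -0.40 for Erbb2, -0.35 for Erbb3, -0.20 for Btc, -0.18 for Egfr and -0.13 for Hbegf, with none given for Areg and Tgfa.

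**Figure D5:**
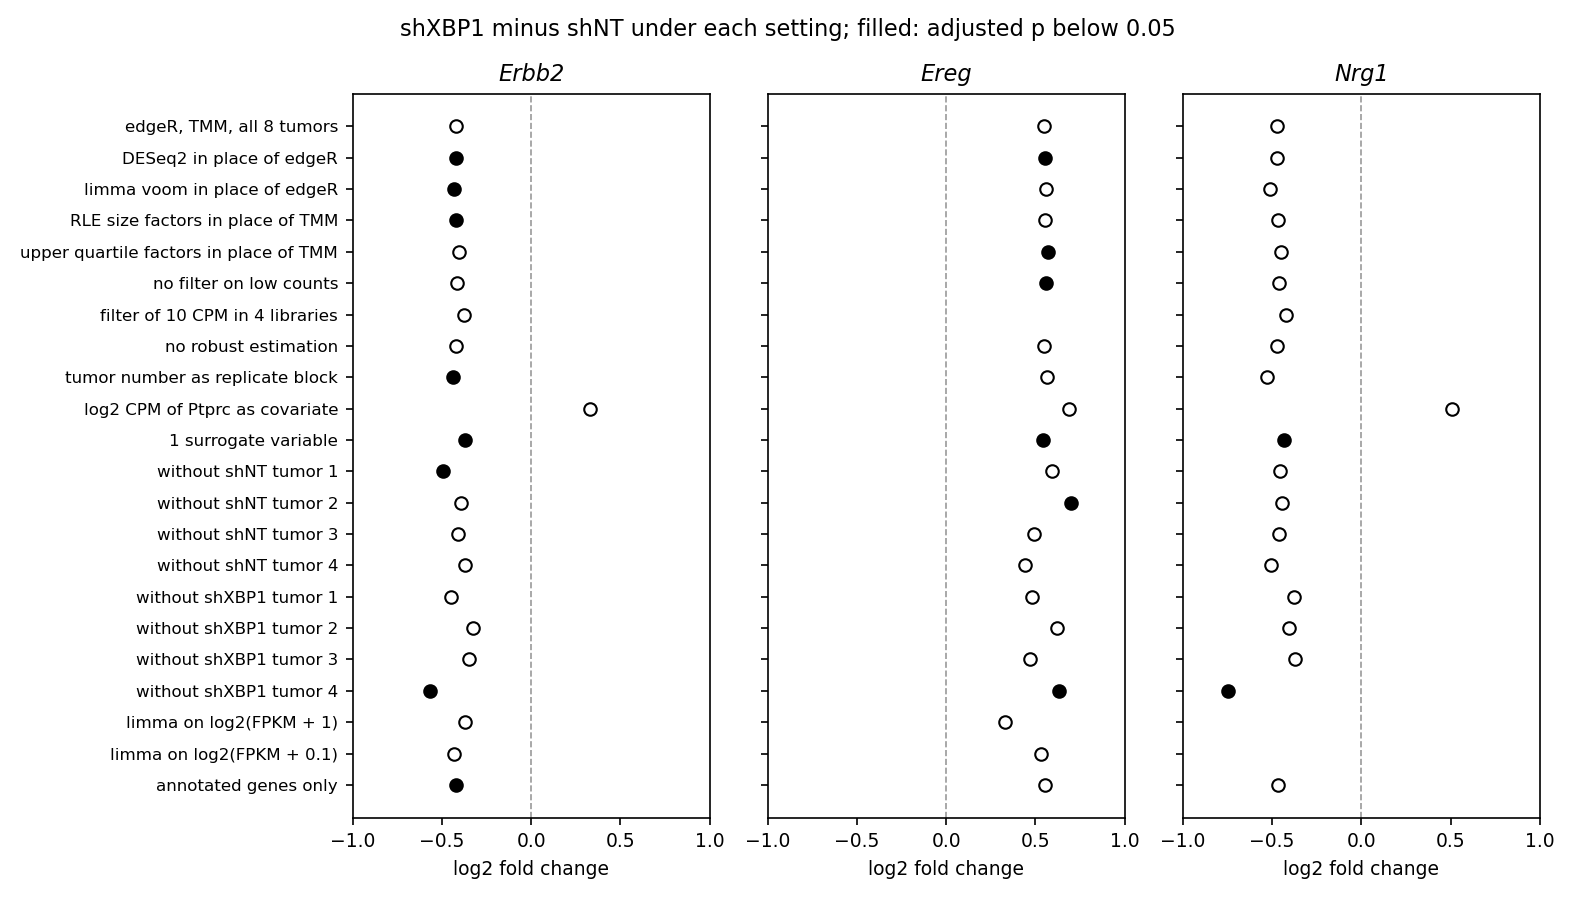
Log2 fold change of Erbb2, Ereg and Nrg1 (shXBP1 minus shNT) under each alternative fit and with each tumor left out; filled points have an adjusted p below 0.05 and open points do not. Ereg lies above 0 in every fit shown, while Erbb2 and Nrg1 lie below 0 except with Ptprc as a covariate (0.33 and 0.51).

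Likeness to other genes was measured as Pearson's correlation of log2 CPM over the 8 tumors after the group means were removed, among 13310 genes of at least 1 CPM, as a description without a test. All values share the same 8 libraries, and the highest of so many is large by selection. The genes most like Erbb2 were Nfix (0.996) and Supt5 (0.993), and those most like Egfr were Klc4 (0.983) and Jdp2 (0.971). For Erbb3 they were Gar1 (0.979) and Mkrn3 (0.967). Hbegf was most like Carhsp1 (0.972) and a locus without a name (0.968), Btc most like Adprm (0.970) and Nectin3 (0.949), and Ereg most like a locus without a name (0.985) and BC052040 (0.982). None of these nearest genes was another of the 8. Areg and Tgfa, under 1 CPM, were left out.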

How the data were processed

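RNA-seq of 8 MC38-OVA tumors was analysed, grouped by the genotype in the labels. The counts were deposited without normalization, and the deposited FPKM values were made by the authors, who scaled for length and depth. The deposited table also gives the authors' log2 fold change and adjusted p-value from DESeq2, per the file headers, for 13307 entries. Per the submitters' processing notes, reads were placed on GRCm38. No source used here gives the aligner, counter, strand setting or annotation release. No per-sample column was left unmapped.

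Counts were filtered with filterByExpr (14907 of 25766 entries left, including loci the table lists as new, which hold 1.47% to 1.58% of the counts), scaled by TMM (factors 0.980 to 1.04) and tested by edgeR's quasi-likelihood method (version 4.0.16, R 4.3.3, robust), two-sided, with p-values adjusted by Benjamini-Hochberg across every gene tested and called below 0.05. CPM used TMM-scaled libraries, and an SE is the log2 fold change divided by the square root of F. Coordinates came from GENCODE M21. The procedure was tested on simulated counts. Tumors of 1 group differed by at least 16.5 in chi-square per degree of freedom, more than repeated sequencing of 1 library would give.

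Alternatives were DESeq2 (1.42.0), limma voom (3.58.1), other size factors, no robust estimation, no filter or one of 10 CPM in 4 libraries, a block for the tumor number, Ptprc as a covariate, 1 surrogate variable (sva 3.50.0), log2 of FPKM plus a pseudocount of 1 or 0.1, a threshold of 0.01 and each tumor left out. Annotated genes only was added after seeing the data.

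The 8 genes and the gene lists were chosen with earlier results of these data known. Named by rule were the 8 genes, 7 other family genes, of each pathway list the 4 genes with the smallest p, the 2 genes most like each of the 8 with at least 1 CPM, Xbp1 and Ptprc. The list gene Nrdc matched no symbol and was left out, and 1 gene that the rule names is not reported here. A search for the EGF-like cysteine pattern in the ligands was not run, and promoters of Ereg, Hbegf and Erbb3 were not used here.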

Additional observations from a re-analysis of the deposited data

Results flagged for a closer look

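Single tumors far from the others of their group were sought in 80 pairs of gene and group (by Dixon's ratio for 4 samples), and 4 were found. Chance flags about 1 in 20 such groups, which is as many as were found here. Areg was at 0.789 CPM in shNT tumor 2, against 0.405 to 0.451 CPM in the other shNT tumors. Nrg1 was at 22.2 CPM in shXBP1 tumor 4, against 11.4 to 12.6 CPM in shXBP1 tumors 1 to 3. Adam17 was at 75.3 CPM in shNT tumor 2, against 86.1 to 87.4 CPM in the other shNT tumors. Socs5 was at 121 CPM in shNT tumor 2, against 141 to 144 CPM in the others.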

How the results depend on the processing

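Of the counts of calls, genes higher in shXBP1 went from 2517 to 134 with the Ptprc covariate and to 1644 at a threshold of 0.01 (2058 to 2904 with a tumor left out), and genes lower in shXBP1 from 1958 to 106, 879 and, with the tumor number as replicate block, 1304 (1303 to 2401). Of the 8 genes, 1 was higher with DESeq2, upper quartile factors, no filter or 1 surrogate variable, and 1 was lower with DESeq2, limma voom, RLE factors, the replicate block, 1 surrogate variable or annotated genes only, in place of 0 each way (0 to 1 with a tumor left out). The pathway list genes higher went from 13 to 20 with the 10 CPM filter and 4 with the Ptprc covariate (8 to 15 with a tumor left out), and those lower from 10 to 6, 0 and, with the replicate block, 5 (4 to 13). With the Ptprc covariate the sign turned for Areg (1.19), Erbb2 (0.33), Egf (0.099), Nrg1 (0.51), Adam17 (-0.0030), Rhbdf1 (0.11), Shc1 (0.15) and Etv1 (-0.066). With tumors left out it turned for Areg (0.14 and 0.25, over a range from -0.36), Tgfa (-0.25 and -0.12, over a range up to 0.77) and Nrg2 (0.0021 and 0.0093, over a range from -0.25). With the replicate block Erbb2 was at -0.44 (adjusted p = 0.0453) and Ereg at 0.57 (0.0758), and 2 in place of 4 ligand processing genes were higher. Same-numbered tumors did not deviate together (correlations -0.20 to -0.078 over 13311 genes), and no tumor correlated best with its own number. The labels do not say whether the numbers pair the tumors, and 4 tumors per group are too few to exclude it.

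Of the values of named genes under an alternative, 594 kept their direction and side of the threshold, 86 lost and 16 gained the call, and 14 turned sign. The 10 CPM filter leaves no value for Ereg, Areg, Tgfa, Egfr and Erbb3. The median over all genes stayed within 0.033 of 0 on the log2 scale under each fit. Depth limits Areg and Tgfa, at 0 to 25 counts per tumor. The cause of these shifts was not tested.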
